A study of Rattus norvegicus with 12 samples.

Results

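Primary rat microglia kept for 24 h in medium conditioned by neuronal cells that make human alpha-synuclein (aSCM) were set against microglia kept for the same time in the control medium (LZCM). The 6 arrays were chosen by their labels alone, 3 labelled aSCM at 24 h and 3 labelled LZCM at 24 h, out of 12 arrays in the series. The other 6 arrays hold the same media at 6 h, 3 of each. For the aSCM groups an adenoviral vector carried the alpha-synuclein gene into differentiated SH-SY5Y cells, which derive from a human neuroblastoma, and these cells conditioned the medium. The LZCM groups received medium from SH-SY5Y cells infected with an adenoviral vector for LacZ, the bacterial beta-galactosidase gene. All groups therefore share the adenoviral infection of the donor cells, serum-free conditioning, removal of debris by centrifugation and concentration of the medium. The labels give neither the age nor the strain of the rats. Separate cultures, animals or preparations of medium are not stated for the 3 samples of any group. The p-values therefore measure the spread among the samples alone, and that spread may be technical.

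Microglia are the resident macrophages of the brain. Alpha-synuclein is a neuronal protein that aggregates in Parkinson disease, and the form that neurons release is known to engage Toll-like receptor 2 on microglia. Toll-like receptors signal through the adaptor MyD88 to the transcription factor NF-kB, which drives cytokine and chemokine genes and also its own inhibitors, while secreted interferon drives a separate gene set through its own receptor. The comparison describes the late state of the cells, after the first wave of such a response.

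Illumina bead arrays measured 22523 probes, and the 13340 that exceeded background on 3 or more of 12 arrays were tested. Each value below is a background-corrected, normalized log2 signal for 1 array unless stated otherwise. A probe or gene was called higher or lower when limma's Benjamini-Hochberg adjusted p over all tested probes was under 0.05. Between 11804 and 11953 probes were above background on the aSCM arrays and between 12006 and 12117 on the LZCM arrays. Deposited values correlated at 0.997 within each group of 24 h arrays and at 0.963 to 0.965 between the media, and no 24 h array stood apart from its group. All 14 microglia and macrophage markers that the array names were above background and tested, among them Aif1, Itgam, Tyrobp, Spi1 and the C1q chains. Arrays measure mixed RNA, so fewer cells of a type and less RNA per cell cannot be told apart.

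Of 9077 named genes tested, 2742 (30.2%) were called higher in aSCM and 2537 (27.9%) lower, 58.2% together. Of all 13340 tested probes 54.9% were called, and of the 4044 with no gene listed 47.9%. Most of these differences were small. The median fold was 1.42 among genes called higher and 1.585 among genes called lower, and only 471 genes (5.19%) were at least 2-fold higher and 727 (8.01%) at least 2-fold lower. The balance turned at the far end, where 39 genes (0.43%) were at least 10-fold higher and 15 (0.165%) at least 10-fold lower. The 10-fold counts were 28 higher and 7 lower with no background correction or with the authors' processed values. Over all tested genes the log2 fold changes had a median of 0.04. With 75th percentile scaling in place of quantile normalization it was 0.16, and the calls then split into 3460 genes higher and 2095 lower. With no normalization between arrays it was -0.06, with 1218 genes higher and 2214 lower.

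The 12 largest rises were Slpi, Upp1, Ptgs2, Cxcl2, Akr1b8, Il10, Ccl12, Mmp9, Adora2a, Wfdc21, Ccl4 and Il1a, with folds between 22.9 and 94.1. They were chosen among called genes whose groups did not overlap. Slpi, a secreted inhibitor of neutrophil proteases, had 13.44, 13.51 and 13.34 in aSCM against 6.85, 6.82 and 6.94 in LZCM. The groups lay far apart and the fold was 94.1 (95% interval 74.0 to 120, adjusted p 1.25e-11). Rat Slpi has pseudogene copies with probes of their own, and cross-hybridization between them was not tested. Upp1, uridine phosphorylase, had 14.49, 14.43 and 14.43 in aSCM against 8.06, 7.88 and 8.04 in LZCM, an 87.6-fold rise with no overlap. Wfdc21, which belongs to the same whey acidic protein family as Slpi, was 25.4-fold higher. Akr1b8, an aldo-keto reductase, was 46.0-fold higher, with 13.74, 13.76 and 13.83 in aSCM against 8.42, 8.09 and 8.25 in LZCM.

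Ptgs2, which encodes cyclooxygenase-2 and starts prostaglandin synthesis from arachidonic acid, had 13.80, 13.84 and 14.02 in aSCM against 8.17, 8.01 and 8.05 in LZCM, a 56.1-fold difference. Mmp9, a matrix-degrading gelatinase, had 15.11, 15.00 and 15.07 in aSCM against 10.13, 10.17 and 10.16 in LZCM and was 30.0-fold higher. The aSCM values of Mmp9 were high on the log2 scale of the scanner, as were those of Il1b, Ccl7, Cd14 and Prdx5, and the LZCM values of Trem2. Whether signals of this size were saturated was not tested. Adora2a, an adenosine receptor that raises cyclic AMP, gave 11.36, 11.38 and 11.37 in aSCM against 6.61, 6.49 and 6.41 in LZCM, a 29.3-fold rise.

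**Figure D1:**
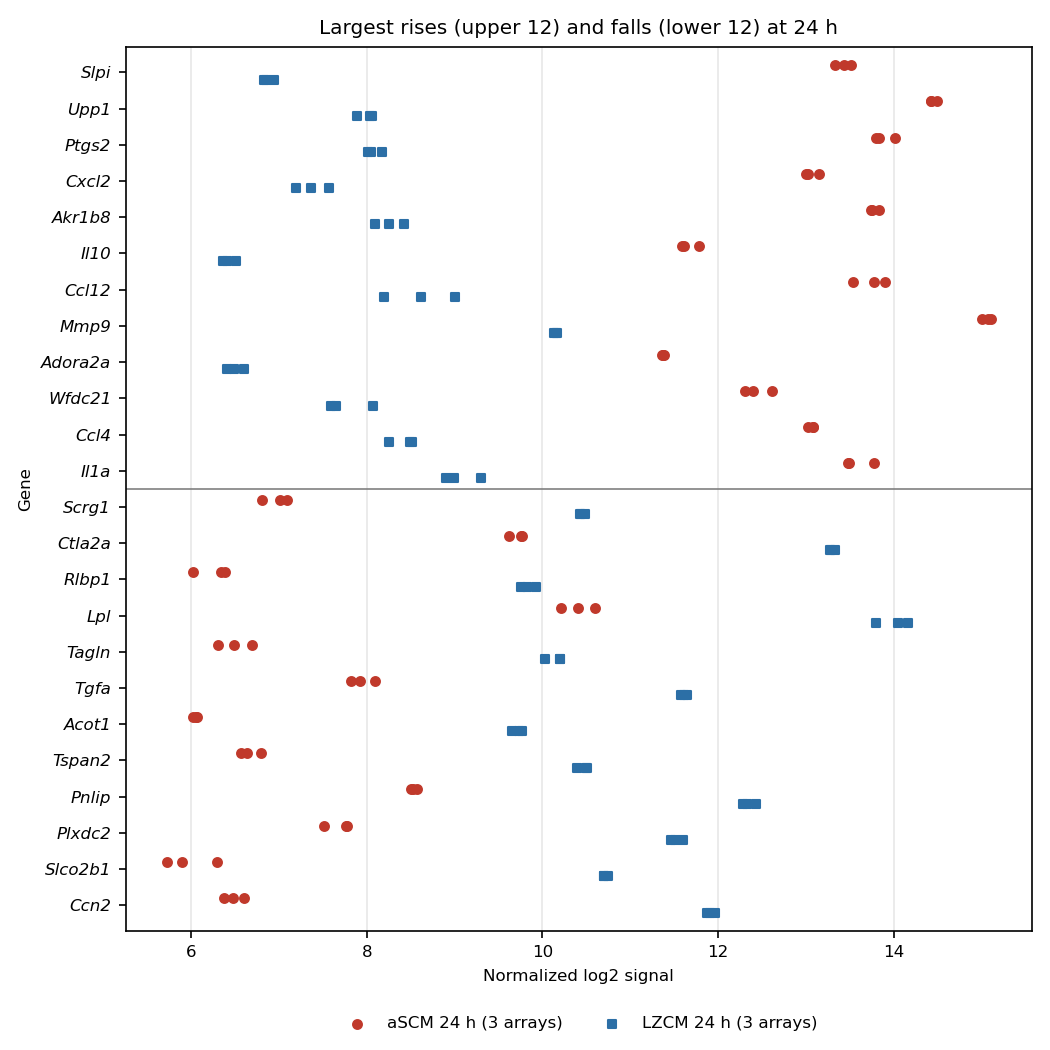
Normalized log2 signal (horizontal axis) of the 12 genes with the largest rise and the 12 with the largest fall at 24 h, 1 point per array, with aSCM arrays as red circles and LZCM arrays as blue squares below them. The genes were chosen for the largest differences among called genes whose 3 aSCM and 3 LZCM arrays do not overlap. The lack of overlap and the wide gap between media therefore follow from the choice.

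The 12 largest falls were Ccn2, Slco2b1, Plxdc2, Pnlip, Tspan2, Acot1, Tgfa, Tagln, Lpl, Rlbp1, Ctla2a and Scrg1, with folds between 11.2 and 43.2. They too were chosen among called genes whose groups did not overlap. Ccn2 encodes connective tissue growth factor, a target of TGF-beta and YAP signalling, and had 6.60, 6.37 and 6.48 in aSCM against 11.96, 11.91 and 11.88 in LZCM, a 43.2-fold difference (95% interval 36.9 to 50.5, adjusted p 3.79e-12). Slco2b1, an organic anion transporter, had 5.90, 6.29 and 5.72 in aSCM against 10.70, 10.70 and 10.75 in LZCM. It was above background on only 1 of 3 aSCM arrays, so its 26.9-fold difference rests on values near the floor there. Tagln, the actin-binding protein transgelin, had 6.69, 6.31 and 6.49 in aSCM against 10.03, 10.20 and 10.20 in LZCM and was 12.5-fold lower. Tgfa, a ligand of the epidermal growth factor receptor, was 12.7-fold lower, and Acot1, a thioesterase of fatty acyl-CoA, was 12.7-fold lower.

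Tspan2, Scrg1 and Rlbp1 are known from oligodendrocytes or other glia. Tspan2 had 6.64, 6.79 and 6.56 in aSCM against 10.40, 10.49 and 10.51 in LZCM, and Rlbp1, a retinaldehyde-binding protein, had 6.33, 6.39 and 6.02 in aSCM against 9.93, 9.82 and 9.76 in LZCM. Neither overlapped between the media, as the choice of these genes required. Markers of other brain cells were therefore read beside them, with the genes named here chosen after their values were seen. Over all genes 30.2% were called higher and 27.9% lower. Of 8 astrocyte markers tested, 0 were called higher and 7 lower, with a median log2 fold change of -1.88. Gfap, the astrocyte intermediate filament, differed by -3.17 and Slc1a3, a glutamate transporter, by -2.80. Of 11 oligodendrocyte lineage markers, 0 were called higher and 10 lower, with a median of -1.81. Cldn11, a tight junction protein of myelin, was above background on none of the aSCM arrays and was at least 7.55-fold lower, while Olig1 differed by -2.75 and Mbp by -2.38. Without aSCM 24 h replicate 3, 1 astrocyte marker was called higher.

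The summed linear signal of the 8 astrocyte markers was 3481 to 3570 on aSCM arrays, against 16714 to 18323 on LZCM arrays. That of the 11 oligodendrocyte lineage markers was 7080 to 7936 on aSCM arrays, against 36962 to 37577 on LZCM arrays. Bright probes weigh most in such sums: on the LZCM 24 h arrays Olig1 averaged 14.68 on the log2 scale and Olig2 7.05. At 6 h the astrocyte sums were 4903 to 5063 in aSCM and 8208 to 8460 in LZCM, and the oligodendrocyte sums were 7658 to 8364 in aSCM and 12948 to 14597 in LZCM. The LZCM arrays were thus higher at 24 h than at 6 h in both sums, while the aSCM arrays were lower or overlapped. Of 12 neuronal markers, 2 were called higher and 9 lower, and their sum was 8607 to 9518 in aSCM against 18472 to 19793 in LZCM at 24 h. At 6 h the neuronal sums of the media overlapped, at 8939 to 9691 in aSCM and 8543 to 9214 in LZCM. Gap43, with a mean log2 signal of 13.66 in LZCM at 24 h, was the brightest neuronal marker there. The astrocyte markers Aqp4 and Gjb6 and the neuronal marker Slc17a7 did not pass the background filter. The part of these other cells in the falls described here was not tested.

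**Figure D2:**
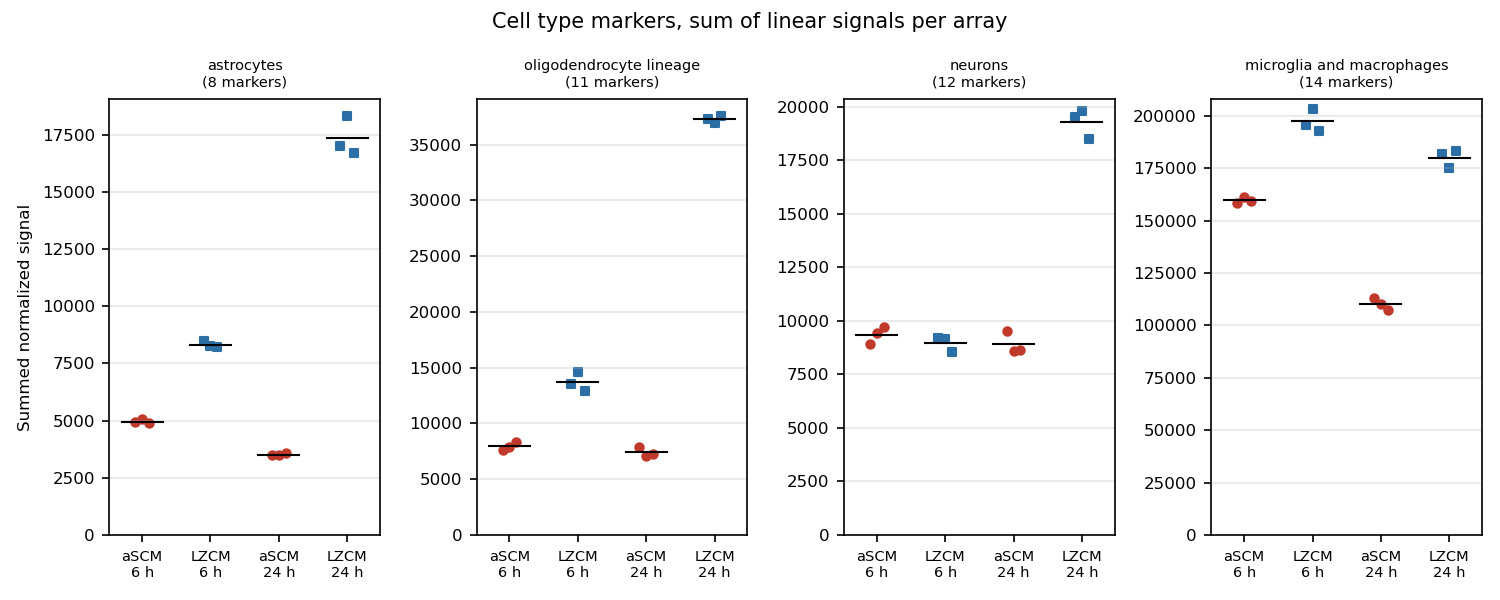
Summed normalized linear signal (vertical axis from 0) of the tested markers of 4 cell types on each of the 12 arrays, with aSCM arrays as red circles, LZCM arrays as blue squares and each group's mean as a line. The LZCM 24 h arrays are highest for astrocyte, oligodendrocyte lineage and neuronal markers, and the aSCM 24 h arrays are lowest for the microglia and macrophage markers. Bright probes weigh most in each sum.

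Markers of other blood and vessel cells were few above background. Among 5 tested markers of lymphocytes and granulocytes 3 were called higher, led by S100a8, which was above background on none of the LZCM arrays and at least 9.27-fold higher, while Cd3g, Cd3d, Ms4a1, S100a9, Elane and Ngp did not pass the background filter. Of 4 endothelial markers 2 were called higher and 0 lower, and the count higher was 1 without LZCM replicate 3, aSCM replicate 2 or aSCM replicate 3 of the 24 h arrays, with 24 h arrays alone, without the background filter, and without normalization. Of 3 fibroblast and mural markers 1 was called higher, and Col1a2 was called lower at -3.17. Of 6 markers of perivascular and peripheral macrophages 2 were higher and 2 lower, near the shares of all genes, 30.2% and 27.9%. With so few markers tested, the counts in this paragraph say little beside those shares.

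**Figure D3:**
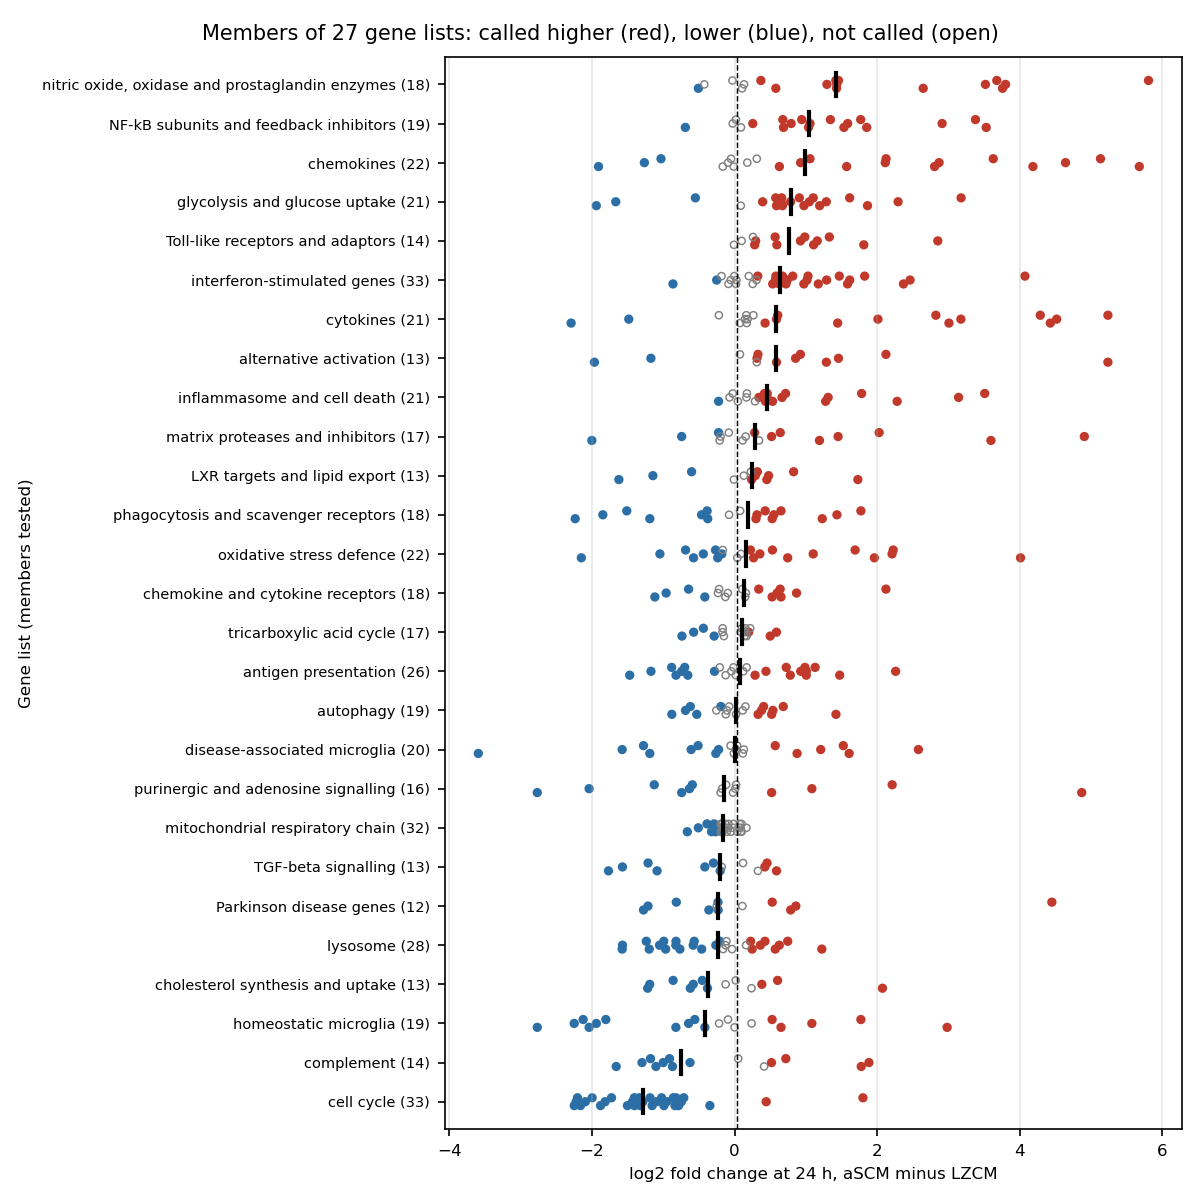
Log2 fold change at 24 h, aSCM minus LZCM (horizontal axis), of each tested member of 27 gene lists, ordered by the list's median (black bar). Filled points were called higher (red) or lower (blue), open points were not called, and the dashed line is the median over all tested genes, 0.04; enzymes of nitric oxide, oxidase and prostaglandin pathways lie highest and cell cycle genes lowest.

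Toll-like receptors and their adaptors were mostly higher. Of 14 members tested 11 were called higher and 0 lower, with a median log2 fold change of 0.76, against 30.2% of all genes called higher. Without normalization between arrays the count was 7. Tlr2 itself had 13.62, 13.67 and 13.67 in aSCM against 12.72, 12.70 and 12.76 in LZCM, a 1.90-fold rise (adjusted p 4.42e-07) with no overlap. Its log2 fold change at 6 h was 1.03, and the effects at the 2 times were not called different (difference -0.11, adjusted p 0.440). Tlr6, a partner of TLR2 in recognising diacylated lipopeptides, had 12.20, 12.18 and 12.17 in aSCM against 10.17, 10.50 and 10.43 in LZCM and was 3.52-fold higher. At 6 h Tlr6 was not called, at -0.08, and its effects at 24 h and 6 h differed by 1.90 (adjusted p 8.74e-08).

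Cd14, the co-receptor that hands lipopolysaccharide and other ligands to Toll-like receptors, had 15.07, 15.09 and 14.94 in aSCM against 12.31, 12.09 and 12.14 in LZCM and was 7.22-fold higher. Tlr7, an endosomal receptor for single-stranded RNA, was 2.52-fold higher. Ticam2, the adaptor that links TLR4 to the TRIF pathway, had 8.42, 8.61 and 8.24 in aSCM against 7.18, 7.34 and 7.26 in LZCM, a 2.24-fold rise, although it was called lower at 6 h (-1.11). Myd88, the adaptor used by most Toll-like receptors, had a log2 fold change of 1.11, Irak2 of 0.99 and Tlr4 of 0.57, all called higher. Tlr5, at -0.01, was not called.

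NF-kB subunits and feedback inhibitors gave 15 of 19 tested members higher and 1 lower, with a median of 1.04. Irak3, a kinase-dead relative of the IRAK kinases that restrains Toll-like receptor signalling, had 10.05, 10.06 and 9.96 in aSCM against 6.57, 6.60 and 6.31 in LZCM and was 11.6-fold higher. Nfkbiz, a nuclear IkB protein that acts on secondary response genes, had 10.37, 10.38 and 10.04 in aSCM against 6.88, 6.79 and 6.96 in LZCM, a 10.4-fold rise. Socs3, an inhibitor of JAK-STAT signalling, was 7.53-fold higher, with 1 of 3 LZCM arrays above background. Dusp1, a phosphatase of MAP kinases, was 3.62-fold higher. The subunit genes were not alike: Nfkb1 differed by 1.59 and Nfkb2 by 1.35, both called, while Rela was at 0.09 and not called. Atf3, a stress-induced repressor of inflammatory genes, was the 1 member called lower, at -0.69.

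Cytokine genes gave 12 of 21 tested members higher and 2 lower, with a median of 0.59. Il1b had 15.52, 15.42 and 15.49 in aSCM against 11.56, 10.80 and 11.20 in LZCM, a 19.6-fold difference (95% interval 14.4 to 26.7). Its highest deposited value at 24 h was 15.47, against the ceiling of 16 of a 16-bit scanner. Il1a had 13.49, 13.49 and 13.78 in aSCM against 9.30, 8.90 and 8.99 in LZCM and Il1rn, the receptor antagonist that blocks both forms of interleukin-1, had 11.39, 11.39 and 11.41 in aSCM against 6.91, 7.08 and 6.91 in LZCM, a 21.6-fold rise. Agonists and antagonist of the interleukin-1 receptor were thus higher together. Il10, an anti-inflammatory cytokine, had 11.62, 11.79 and 11.59 in aSCM against 6.36, 6.41 and 6.51 in LZCM and was 37.8-fold higher (adjusted p 3.79e-12).

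Il6 was above background on all 3 aSCM arrays and on none of the LZCM arrays, with 8.63, 8.83 and 9.06 in aSCM against 5.80, 5.43 and 5.75 in LZCM. The group means were 8.84 in aSCM and 5.66 in LZCM, and the rise was at least 7.26-fold (adjusted p 6.35e-09). That bound sets the aSCM mean against the lowest signal above background, or the probe's own if higher, on each LZCM array. Tnf had 9.15, 8.91 and 8.77 in aSCM against 5.89, 6.27 and 6.19 in LZCM, a 7.09-fold difference, with 2 of 3 LZCM arrays above background. Csf3, a growth factor of granulocytes, was called higher at 3.01 and Il18 at 2.01. The members that fell were Il16, a chemoattractant for CD4+ cells that was above background on none of the aSCM arrays and at least 3.87-fold lower, and Csf1, a growth factor on which macrophages depend, at -1.48. Il12b, Il15, Osm and Ifnb1 were not called, at 0.17, 0.15, 0.26 and 0.18.

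Chemokine genes gave 13 of 22 tested members higher and 3 lower, with a median of 0.99. Cxcl2, which attracts neutrophils, averaged 13.06 ± 0.08 in aSCM and 7.38 ± 0.19 in LZCM (SD, n = 3 each) with no overlap, and was 51.3-fold higher. Ccl12, a ligand of the receptor CCR2, had 13.78, 13.54 and 13.91 in aSCM against 9.01, 8.20 and 8.62 in LZCM, a 35.2-fold rise with the widest spread among the named chemokines. Ccl4, which attracts monocytes and T cells, was 25.0-fold higher, and Ccl7, which attracts monocytes, was 18.2-fold higher, with 14.88, 15.00 and 15.13 in aSCM against 10.78, 10.93 and 10.75 in LZCM. Ccl3 differed by 3.63, Cxcl1 by 2.87 and Ccl2 by 2.81, all called. Ccl20, Cxcl12 and Cx3cl1 were the members called lower, at -1.27, -1.03 and -1.91. Cx3cl1, fractalkine, is made mainly by neurons and is the ligand of the microglial receptor CX3CR1, and 9 of the 12 neuronal markers described above were also lower.

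Promoter windows were searched for the letters of an NF-kB motif. The windows, from 250 bases before to 50 after each gene's first listed start, are those of RefSeq for the rat build GRCr8, and 7572 of 9077 tested genes had one. The NF-kB motif searched, on both strands, was GGGA and TTCC with any 2 bases between them. At least 4-fold differences were called for 120 genes higher (1.32%) and 156 lower (1.72%), of which 91 and 117 had a window. The motif was present in 355 of 27457 rat promoters (1.29%) and in 112 of 7572 (1.48%) of the tested genes. It was in 10 of 91 (11.0%) of the genes called at least 4-fold higher and in 2 of 117 (1.71%) of those at least 4-fold lower. Only 8 of the 13 chemokine genes called higher had a window, and 4 of the 8 held the motif. Only 10 of the 12 cytokine genes called higher had a window, and 1 of the 10 held it. The window of Cxcl2 holds no such letters, but looser forms of the motif were not searched there or in any other window. Capitals mark the motif in the windows below, written 5′ to 3′ in the direction of the gene. They are shown for Il6, the 1 cytokine gene among those 10 that holds it, a chemokine, a feedback regulator and the second largest rise, followed by the largest fall, which carries the letters too. Their places are chr4:5894526-5894825, minus strand for Il6, chr10:67513845-67514144, plus strand for Ccl7, chr11:58251471-58251770, plus strand for Nfkbiz, chr14:88024420-88024719, plus strand for Upp1 and chr1:22624565-22624864, minus strand for Ccn2.
Il6: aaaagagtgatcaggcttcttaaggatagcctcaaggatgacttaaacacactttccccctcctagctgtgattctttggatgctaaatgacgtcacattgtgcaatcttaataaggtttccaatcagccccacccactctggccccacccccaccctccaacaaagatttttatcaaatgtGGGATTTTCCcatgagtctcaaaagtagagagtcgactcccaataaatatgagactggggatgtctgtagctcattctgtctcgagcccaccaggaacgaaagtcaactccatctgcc
Ccl7: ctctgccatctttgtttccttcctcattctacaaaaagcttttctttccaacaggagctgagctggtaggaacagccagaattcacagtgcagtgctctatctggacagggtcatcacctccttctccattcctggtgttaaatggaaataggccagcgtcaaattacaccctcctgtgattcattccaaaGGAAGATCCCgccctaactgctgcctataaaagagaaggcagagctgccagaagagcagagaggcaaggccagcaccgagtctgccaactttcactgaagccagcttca
Nfkbiz: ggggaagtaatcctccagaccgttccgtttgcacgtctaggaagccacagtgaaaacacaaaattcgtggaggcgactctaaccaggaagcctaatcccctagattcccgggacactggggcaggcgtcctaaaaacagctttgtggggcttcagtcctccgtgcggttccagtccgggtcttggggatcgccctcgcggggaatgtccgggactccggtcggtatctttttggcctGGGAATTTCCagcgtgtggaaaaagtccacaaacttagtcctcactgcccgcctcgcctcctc
Upp1: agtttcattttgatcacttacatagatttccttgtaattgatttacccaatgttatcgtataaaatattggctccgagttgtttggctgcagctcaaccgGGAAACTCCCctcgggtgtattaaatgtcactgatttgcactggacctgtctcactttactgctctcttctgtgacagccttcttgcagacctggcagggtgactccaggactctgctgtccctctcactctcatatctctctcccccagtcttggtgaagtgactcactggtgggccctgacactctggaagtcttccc
Ccn2: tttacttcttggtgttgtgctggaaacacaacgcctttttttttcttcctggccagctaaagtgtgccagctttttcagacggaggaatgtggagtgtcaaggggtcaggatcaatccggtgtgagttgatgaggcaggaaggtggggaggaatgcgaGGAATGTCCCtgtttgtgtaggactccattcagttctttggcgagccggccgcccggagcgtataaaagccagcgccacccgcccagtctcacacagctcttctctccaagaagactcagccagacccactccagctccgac
The motif begins 68 bases before the start in Il6 and 59 bases before it in Ccl7. A match describes letters and is not a site.

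Of 18 tested receptors for chemokines and cytokines 7 were called higher and 4 lower, against 30.2% of all genes higher and 27.9% lower. The median of 0.13 turned to -0.03 without normalization between arrays. Il4r, the receptor chain for interleukins 4 and 13, had 9.30, 9.10 and 9.30 in aSCM against 7.23, 6.97 and 7.12 in LZCM and was 4.36-fold higher, and Il13ra1, its partner chain, was 1.83-fold higher. Cxcr4, the receptor of CXCL12, was 2.17-fold lower and Ifngr1, the ligand-binding chain of the interferon-gamma receptor, 1.95-fold lower. Ligand and receptor of the CXCL12 pair were therefore both lower. Cx3cr1 had 7.36, 7.48 and 7.30 in aSCM against 7.50, 7.70 and 7.59 in LZCM, and the log2 fold change of -0.22 was not called (adjusted p 0.0512), although the values did not overlap. It was called lower under 12 alternatives, among them those without aSCM 24 h replicate 2 or LZCM 24 h replicate 1 (adjusted p 0.0379 and 0.0402). At 6 h it was called lower, at -2.80, and the effects at the 2 times differed by 2.58 (adjusted p 9.36e-09).

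Interferon-stimulated genes gave 22 of 33 tested members higher and 2 lower, with a median of 0.64. Usp18, a protease that removes ISG15 from proteins and dampens the interferon receptor, had 10.76, 10.75 and 10.63 in aSCM against 6.76, 6.46 and 6.71 in LZCM, a 16.9-fold rise (95% interval 14.1 to 20.1, adjusted p 4.55e-11). Irf7, a master regulator of type I interferon genes, had 11.78, 11.71 and 11.75 in aSCM against 9.60, 9.25 and 9.27 in LZCM and was 5.17-fold higher. Oasl, an antiviral protein related to oligoadenylate synthetases, was 5.51-fold higher, and Dhx58, a modulator of cytosolic RNA sensing, 3.54-fold higher. Irf8, a factor that macrophages need for their identity, was called lower at -0.86, and Gbp2, induced mainly by interferon-gamma, at -0.25. The count lower was 1 without LZCM 24 h replicate 3 or aSCM 24 h replicate 3, and with 75th percentile scaling or no normalization. Mx1 was not called, at -0.05.

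The interferon-response motif searched in the same RefSeq windows was GAAA, any 2 bases and GAAA, on both strands. It was present in 1034 of 27457 promoters (3.77%), in 225 of 7572 (2.97%) of the tested genes, in 6 of 91 (6.59%) of the genes at least 4-fold higher, in 4 of 117 (3.42%) of those at least 4-fold lower, and in 11 of 17 (64.7%) of the interferon-stimulated genes called higher that had a window. None of those 17 (0 of 17) held the NF-kB letters, which are rare, in 1.48% of the tested genes with a window. The interferon-response letters were in 1 of 8 chemokine genes and 1 of 10 cytokine genes called higher that had a window. The window of Oasl holds neither. The windows of Irf7 and of Psme2, a proteasome activator described next, are shown because both carry the motif, on opposite strands. Irf7 lies at chr1:205799974-205800273, minus strand and Psme2 at chr15:33052702-33053001, minus strand.
Irf7: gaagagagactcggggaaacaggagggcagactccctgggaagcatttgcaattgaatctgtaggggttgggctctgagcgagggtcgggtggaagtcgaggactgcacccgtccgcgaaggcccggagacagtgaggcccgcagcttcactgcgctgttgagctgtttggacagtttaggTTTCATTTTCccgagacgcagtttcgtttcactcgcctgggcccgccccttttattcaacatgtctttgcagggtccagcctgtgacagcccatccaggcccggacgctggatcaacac
Psme2: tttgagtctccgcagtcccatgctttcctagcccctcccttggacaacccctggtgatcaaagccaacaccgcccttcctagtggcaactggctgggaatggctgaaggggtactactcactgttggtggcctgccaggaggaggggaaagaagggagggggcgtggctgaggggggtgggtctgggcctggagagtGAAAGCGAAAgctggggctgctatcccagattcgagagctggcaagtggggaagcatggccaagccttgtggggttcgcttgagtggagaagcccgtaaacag
The motif begins 69 bases before the start in Irf7 and 53 bases before it in Psme2.

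Antigen presentation genes went both ways, with 11 of 26 tested members called higher and 8 lower, against 30.2% and 27.9% of all genes. Their median was 0.07, or 0.03 with dim members at their bound. Psme2, a subunit of the proteasome activator PA28, had 12.56, 12.59 and 12.48 in aSCM against 11.17, 11.01 and 11.02 in LZCM and was 2.78-fold higher, and the peptide transporter genes Tap1 and Tap2 differed by 0.99 and 1.13, the immunoproteasome genes Psmb8 and Psmb9 by 1.01 and 0.93. Cd40, a costimulatory receptor, had 9.35, 9.37 and 9.38 in aSCM against 7.28, 7.06 and 6.98 in LZCM, a 4.79-fold rise. Among the members lower, RT1-DMb, which helps load peptides on class II molecules, was 2.25-fold lower, Cd74, the invariant chain, differed by -0.70 and RT1-Da by -0.88. Cd83, a surface marker of mature dendritic cells, was 2.77-fold lower. B2m, the light chain of class I molecules, was not called, at 0.02.

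Enzymes that make nitric oxide, superoxide and prostaglandins had the highest median of the 27 lists, 1.43, with 13 of 18 tested members called higher and 1 lower. Nos2, the inducible nitric oxide synthase, was above background on all 3 aSCM arrays and on none of the LZCM arrays, with 8.38, 8.66 and 9.04 in aSCM against 4.98, 5.39 and 5.15 in LZCM. The means were 8.70 in aSCM and 5.17 in LZCM, and the rise was at least 6.58-fold (adjusted p 1.74e-08). Gch1, which makes the tetrahydrobiopterin that nitric oxide synthases need, had 11.92, 11.82 and 11.81 in aSCM against 8.05, 8.04 and 8.04 in LZCM, a rise of 3.80 on the log2 scale, and Slc7a2, a transporter of the substrate arginine, was above background on none of the LZCM arrays and at least 4.50-fold higher. Synthase, cofactor enzyme and substrate transporter were thus higher together. Acod1, which makes itaconate, was 13.6-fold higher.

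Among the subunits of the phagocyte NADPH oxidase, Ncf4 had 12.66, 12.70 and 12.78 in aSCM against 9.19, 8.92 and 8.97 in LZCM, a 12.8-fold rise (adjusted p 2.42e-11). It was not called at 6 h, at 0.03, and the effects at the 2 times differed by 3.66 (adjusted p 1.54e-09). Cybb, the catalytic subunit, differed by 1.42, Ncf1 by 0.58 and Cyba by 0.37, all called higher. Downstream of Ptgs2, Ptges, which makes prostaglandin E2, was called higher at 1.30, while Alox5ap, needed for leukotriene synthesis, was the 1 member called lower, at -0.51. The count lower was 2 without aSCM 6 h replicate 2, with 24 h arrays alone, and without normalization between arrays.

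Genes of defence against oxidative stress went both ways, with 11 of 22 tested members higher, 8 lower and a median of 0.16. Over all genes 30.2% were higher and 27.9% lower. Sod2, the mitochondrial superoxide dismutase, had 13.79, 13.78 and 13.79 in aSCM against 9.89, 9.74 and 9.69 in LZCM and was 16.1-fold higher. Prdx5, a peroxiredoxin, had 15.36, 15.19 and 15.32 in aSCM against 13.11, 13.05 and 13.02 in LZCM, a 4.68-fold rise, and Nqo1, a quinone reductase and target of NRF2, was 4.63-fold higher. The NRF2 target Gclm went the other way, at -0.69, and Hmox1 differed by 0.36. Gpx3, a secreted glutathione peroxidase, had 10.30, 10.23 and 10.28 in aSCM against 12.44, 12.41 and 12.40 in LZCM and was 4.44-fold lower. The count lower was 5 in place of 8 with 75th percentile scaling, without the background filter, without normalization, and without LZCM replicate 2, aSCM replicate 2 or aSCM replicate 3 of the 24 h arrays.

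Glycolytic genes rose along most of the pathway, with 17 of 21 tested members called higher, 3 lower and a median of 0.79. Slc16a3, which exports lactate from glycolytic cells, averaged 12.33 ± 0.02 in aSCM and 9.16 ± 0.14 in LZCM (SD, n = 3 each) with no overlap, a 9.06-fold rise (adjusted p 1.80e-10). Slc2a6, a sugar transporter, was 4.91-fold higher, and Pkm, pyruvate kinase, had 7.93, 8.17 and 8.18 in aSCM against 6.24, 6.10 and 6.35 in LZCM and was 3.65-fold higher. Ldha, which makes lactate, differed by 1.29, Pgk1 by 1.19, Hk2 by 0.91 and Hif1a, a regulator of these genes, by 0.79. The members lower were Slc2a5, the fructose transporter and a marker of resting microglia, at -1.94, and the phosphofructokinase isoforms Pfkm and Pfkp at -1.67 and -0.55, while the third isoform, Pfkl, rose by 1.62. At 6 h 10 of the 21 were higher and 5 lower, and in 14 of the 21 the effect at 24 h was called above that at 6 h, in 3 below.

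The respiratory chain differed little. Of 32 tested members 0 were called higher and 10 lower, with a median of -0.16. The count lower was near the share of all genes, 27.9%, while 30.2% of all genes were higher. Ndufa1, a subunit of complex I, had 12.67, 12.63 and 12.61 in aSCM against 13.34, 13.31 and 13.24 in LZCM and was 1.58-fold lower. Cox8a, a subunit of complex IV, was 1.42-fold lower, Ndufs8 1.31-fold and Ndufa10 1.25-fold. These counts turned with the scaling: 75th percentile scaling gave 10 higher and 2 lower, cyclic loess 2 higher and 8 lower, and a variance model with trend and robust settings 17 lower, while without normalization 1 was lower and without LZCM 6 h replicate 2 there was 1 higher. Tricarboxylic acid cycle genes gave 3 of 17 higher (17.65%) and 4 lower (23.53%), both under the shares of all genes, 30.2% and 27.9%. With 75th percentile scaling 10 were higher and without normalization 0. Cs, citrate synthase, was called higher at 0.59 and Dlst at 0.50, while Idh2, the mitochondrial NADP-dependent isocitrate dehydrogenase, was 1.67-fold lower and Mdh1 1.49-fold lower.

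**Figure D4:**
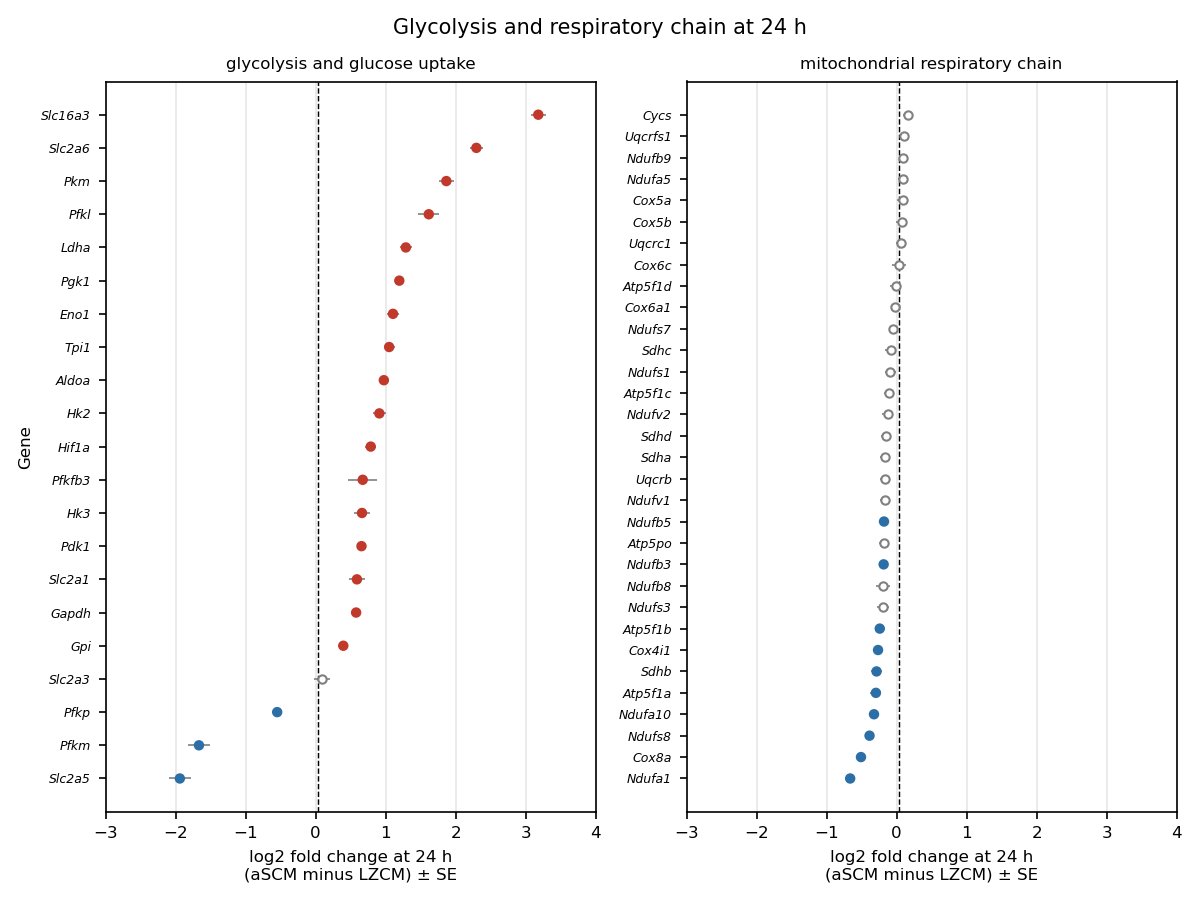
Log2 fold change at 24 h, aSCM minus LZCM, with its SE (horizontal axis) for the 21 tested glycolysis genes and the 32 tested respiratory chain genes, sorted by size, filled where called and open where not, with a dashed line at the median of all tested genes. Glycolysis genes reach 3.18 and 17 lie in red on the right, while all respiratory chain genes lie between -0.66 and 0.17.

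Genes that mark resting, homeostatic microglia gave 5 of 19 tested members higher and 10 lower, against 30.2% and 27.9% of all genes. Their median was -0.42, or -0.28 with dim members at their bound. P2ry12, the ADP receptor by which microglial processes find injury, had 6.79, 6.79 and 6.55 in aSCM against 9.60, 9.43 and 9.40 in LZCM and was 6.81-fold lower (95% interval 5.55 to 8.37, adjusted p 3.61e-09). Its relative P2ry13 was 4.11-fold lower. Trem2, a lipid-sensing receptor that sustains phagocytosis, had 12.88, 12.75 and 12.69 in aSCM against 15.05, 15.01 and 15.02 in LZCM, a 4.76-fold difference with LZCM arrays high on the scanner scale. Sparc, a secreted matrix protein that other glia make too, was 4.36-fold lower, beside the astrocyte and oligodendrocyte lineage markers given above (7 of 8 and 10 of 11 lower), whose part in this list was not tested.

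The list did not move as one. Siglec5, an inhibitory receptor for sialic acid, had 9.89, 9.77 and 9.72 in aSCM against 6.83, 6.76 and 6.84 in LZCM and was 7.91-fold higher. Itgam, the alpha chain of complement receptor 3, had 11.05, 11.16 and 11.17 in aSCM against 9.27, 9.47 and 9.32 in LZCM, a 3.42-fold rise. Neither Tmem119, at 0.24, nor Aif1, at -0.09, was called. Over all 14 microglia and macrophage markers 4 were called higher and 6 lower, and their summed signal was 107154 to 113033 in aSCM against 174958 to 183285 in LZCM. Bright probes weigh most in that sum, and the median log2 fold change of the 14 was -0.17.

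Genes of the state that microglia take in neurodegeneration, described in mice as disease-associated, gave 6 of 20 tested members higher and 8 lower, with a median of 0.01, against 30.2% of all genes higher and 27.9% lower. The count higher is thus at the share of all genes. Lpl, lipoprotein lipase, had 10.41, 10.60 and 10.21 in aSCM against 13.80, 14.16 and 14.05 in LZCM and was 12.1-fold lower. Ctsd, the aspartic protease of the lysosome, was 2.98-fold lower and Gpnmb, a lysosomal glycoprotein, 2.42-fold lower. The members higher were led by Ch25h, cholesterol 25-hydroxylase and itself an interferon-stimulated gene, with 11.59, 11.54 and 11.52 in aSCM against 9.19, 8.88 and 8.84 in LZCM and a 5.98-fold rise, and Cd44, the hyaluronan receptor, at 3.05-fold. Cst7, an inhibitor of cathepsins, was called higher at 1.53. Apoe was not called, at -0.01.

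Phagocytosis and scavenger receptors gave 9 of 18 tested members higher and 7 lower, with a median of 0.19, against 30.2% of all genes higher and 27.9% lower. Without normalization 5 were higher and 7 lower. Receptors for antibody and complement were among those higher: Itgam, Fcgr2b at 1.44 and Fcgr1a at 1.23. Molecules of apoptotic cell uptake were among those lower. Mfge8, which bridges phosphatidylserine to integrins, had 10.35, 10.29 and 10.42 in aSCM against 12.20, 12.19 and 12.20 in LZCM and was 3.60-fold lower. Itgb5, an integrin chain that binds it, had 9.72, 9.78 and 9.58 in aSCM against 11.90, 11.92 and 11.97 in LZCM, a 4.71-fold difference, and Axl, a receptor for Gas6, differed by -1.19. Mertk, the related receptor, was called higher at 0.65. Olr1, a receptor of oxidised lipoprotein, was 2.85-fold lower although called higher at 6 h (1.21).

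Complement genes gave 4 of 14 tested members higher and 8 lower, with a median of -0.75. The count higher was near the share of all genes, 30.2%, and 27.9% of all genes were lower. C3ar1, the receptor of the C3a fragment, had 10.66, 10.78 and 10.69 in aSCM against 8.85, 8.87 and 8.77 in LZCM, a 3.70-fold rise, against a log2 fold change of -2.17 at 6 h, called lower. C1r, a protease of the C1 complex, was 3.43-fold higher. Its inhibitor Serping1 had 7.94, 7.95 and 7.98 in aSCM against 9.55, 9.73 and 9.58 in LZCM and was 3.16-fold lower. Cfd, the protease that starts the alternative pathway, was 2.46-fold lower, and the recognition chains C1qa and C1qc differed by -1.18 and -0.91, both called.

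Lysosomal genes gave 8 of 28 tested members higher and 15 lower, with a median of -0.23. The count higher was near the share of all genes, 30.2%, and 27.9% of all genes were lower. Hexa, which degrades gangliosides, had 10.91, 11.01 and 10.97 in aSCM against 12.51, 12.52 and 12.57 in LZCM and was 2.97-fold lower. Man2b1, a mannosidase, was 2.36-fold lower, and the glycan and lipid hydrolase genes Gusb and Lipa differed by -0.99 and -1.20. Neu1, a sialidase, went the other way at 2.34-fold higher, with 10.58, 10.46 and 10.47 in aSCM against 9.29, 9.31 and 9.23 in LZCM. The master regulator gene Tfeb was not called, at -0.13. Autophagy genes gave 7 of 19 higher and 5 lower, near the shares of all genes (30.2% and 27.9%), and 3 higher without normalization. Optn, a receptor for ubiquitinated cargo, was 2.68-fold higher and Atg5 1.61-fold higher, while Ulk1, the kinase that starts autophagy, was 1.84-fold lower and Map1lc3b, a coat protein of autophagosomes, 1.61-fold lower.

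Matrix proteases and inhibitors gave 8 of 17 tested members higher and 3 lower, with a median of 0.28. Over all genes 30.2% were higher and 27.9% lower. Besides Mmp9, Mmp3, a stromelysin, had 9.40, 9.57 and 9.51 in aSCM against 6.08, 5.82 and 5.79 in LZCM and was 12.1-fold higher, with 1 of 3 LZCM arrays above background. Mmp14, a membrane-bound protease that activates other members, was 4.08-fold higher. Plau, the urokinase that makes plasmin, had 8.30, 8.57 and 8.27 in aSCM against 10.30, 10.43 and 10.42 in LZCM and was 4.01-fold lower, and Timp2 differed by -0.22.

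Cholesterol synthesis genes gave 3 of 13 tested members higher and 7 lower, with a median of -0.38. Over all genes 30.2% were higher and 27.9% lower. Dhcr7, the last enzyme of the route, was 2.33-fold lower, Idi1 2.28-fold lower and Sc5d 1.82-fold lower. Stard4, which moves cholesterol inside the cell, had 9.24, 9.16 and 9.25 in aSCM against 7.03, 7.16 and 7.24 in LZCM, a 4.21-fold rise. Among targets of the liver X receptors 7 of 13 were called higher and 3 lower, or 4 higher without normalization, where the median was 0.02 in place of 0.24. Nr1h3, the gene of liver X receptor alpha, had 9.88, 9.86 and 9.92 in aSCM against 8.38, 8.15 and 7.94 in LZCM and was 3.32-fold higher, and Lpcat3 was 1.78-fold higher. Apoc1 was 3.08-fold lower and Scd, stearoyl-CoA desaturase, 2.21-fold lower. The sterol exporters Abca1 and Abcg1 were called higher at 0.45 and 0.48.

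Genes linked to alternative activation gave 9 of 13 tested members higher and 2 lower, with a median of 0.59. Besides Il10 and Il4r, Arg1, the arginase that competes with nitric oxide synthase for arginine, had 7.93, 7.82 and 7.99 in aSCM against 6.28, 6.66 and 6.43 in LZCM and was 2.75-fold higher. Fn1, fibronectin, had 9.22, 9.32 and 9.59 in aSCM against 11.31, 11.34 and 11.38 in LZCM and was 3.91-fold lower, and Pparg, above background on none of the aSCM arrays, was at least 1.24-fold lower. Of 13 TGF-beta genes 3 were called higher and 7 lower, against 30.2% and 27.9% of all genes, with a median of -0.20. Tgfb2, a ligand, had 6.92, 6.72 and 6.68 in aSCM against 8.56, 8.54 and 8.52 in LZCM and was 3.41-fold lower, Ltbp1, which stores the latent ligand in matrix, was 2.12-fold lower, and the inhibitory Smad7 and Smad6, both targets of the pathway, were 2.98-fold and 2.32-fold lower. Smad7 was above background on 2 of 3 aSCM arrays. Ccn2 and Tagln, known targets as well, are not on this list and were named for the size of their falls. Of the astrocyte markers 7 of 8 were lower too, and of 3 fibroblast and mural markers 1 was lower and 1 higher. The part of such cells in these falls was not tested.

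Of 16 purinergic and adenosine genes 4 (25.0%) were called higher and 6 (37.5%) lower, with a median of -0.15, against 30.2% of all genes higher and 27.9% lower. The receptor pattern was mixed: Adora2a and P2ry2, a receptor for ATP and UTP, rose (29.3-fold and 4.63-fold), P2ry6, a receptor for UDP, differed by 1.09, and P2ry12 and P2ry13, receptors for ADP, fell. P2ry2 had 8.75, 8.79 and 8.81 in aSCM against 6.80, 6.53 and 6.38 in LZCM. Adora1, Adora3, P2rx4 and P2rx7 were not called, at -0.17, 0.01, -0.12 and -0.02.

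Genes of inflammasomes and cell death gave 14 of 21 tested members higher and 1 lower, with a median of 0.45. The members with the largest differences were led by inhibitors of death. Birc3, a ubiquitin ligase that protects from TNF-driven death, had 10.83, 10.70 and 10.75 in aSCM against 7.36, 7.30 and 7.09 in LZCM and was 11.4-fold higher. Cflar, which blocks caspase-8 activation, had 9.89, 9.93 and 9.85 in aSCM against 6.72, 6.92 and 6.59 in LZCM, an 8.84-fold rise, and Bcl2a1, an anti-apoptotic BCL2 relative, was 3.44-fold higher. Ripk3, the kinase that drives necroptosis, was also 4.86-fold higher. Nlrp3, an inflammasome sensor, was called higher at 1.31 and Casp1 at 0.53, while the adaptor Pycard was not called, at 0.17, and Casp4 was called lower, at -0.22. The count lower was 0 when LZCM 24 h replicate 2 or 3, aSCM 24 h replicate 1 or 2, or LZCM 6 h replicate 1 or 3 was left out, with the replicate block, with 24 h arrays alone, without the background filter, and with 75th percentile scaling or no normalization.

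Of 17 genes linked to inherited or common risk of Parkinson disease 12 were tested, and 4 were called higher and 6 lower, with a median of -0.23, against 30.2% of all genes higher and 27.9% lower. With 75th percentile scaling 5 were higher and 4 lower, with a median of 0.04. Bst1, an ectoenzyme that makes cyclic ADP-ribose, had 11.42, 11.44 and 11.40 in aSCM against 6.97, 7.01 and 6.92 in LZCM and was 21.9-fold higher (95% interval 18.8 to 25.6, adjusted p 1.10e-11). Its log2 fold change at 6 h was 1.00, and the difference between the times was 3.45 (adjusted p 3.51e-09). Pink1, a kinase that marks damaged mitochondria, had 8.29, 8.25 and 8.29 in aSCM against 9.51, 9.46 and 9.51 in LZCM and was 2.32-fold lower. Atp13a2, a lysosomal polyamine exporter, was 1.81-fold higher. Lrrk2 was not called, at -0.25, and Park7 was called lower, at -0.23. Uchl1, abundant in neurons, was called lower at -0.82, beside neuronal markers of which 9 of 12 were lower.

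Cell cycle genes had the lowest median, -1.29, with 2 of 33 tested members called higher and 31 lower, 21 of them at least 2-fold. Ccna2, cyclin A2, had 8.12, 8.30 and 8.04 in aSCM against 10.42, 10.40 and 10.39 in LZCM and was 4.75-fold lower. Cdk1, the mitotic kinase, had 9.97, 9.83 and 9.82 in aSCM against 12.12, 11.97 and 12.02 in LZCM, a 4.47-fold difference, while Prc1, which bundles spindle microtubules, was 4.67-fold lower and Rrm2, which makes deoxynucleotides, 4.61-fold lower. The replication genes Mcm2 to Mcm7 on the list, Pcna and E2f1 were all called lower, between -0.71 and -1.38. The members higher were Cdkn1a, the cyclin-dependent kinase inhibitor p21, at 1.80, and Tyms at 0.44. Which cell type carried these transcripts cannot be read from the arrays. Of the astrocyte and oligodendrocyte lineage markers 7 of 8 and 10 of 11 were lower as well, Pdgfra (-2.14) and Cspg4 (-2.18) of dividing oligodendrocyte precursors among them, and their part in this result was not tested.

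The effect at 24 h was set against that at 6 h through the difference of the effects, tested in the same fit; the comparisons at the 2 times share no arrays. Over all 9077 genes 4890 (53.9%) had a called difference. At 24 h it was above in 2552 (28.1%) and below in 2338 (25.8%). At 6 h 26.1% of genes were called higher and 32.7% lower. Among the genes higher in aSCM at 24 h, 1209 had been higher at 6 h too and 666 lower. Among those lower at 24 h, 1397 had been lower at 6 h too and 362 higher. Ptgs2, Il1a, Ccl4, Nfkbiz, Birc3 and Acod1 were among the named genes whose large rises at the 2 times were not called different: Ptgs2 differed by 5.81 at 24 h and 6.01 at 6 h. The effects on Cxcl2 and Tnf were smaller at 24 h, by -1.16 and -1.75 (adjusted p 0.00123 and 5.16e-06), with Tnf above background on 2 of 3 LZCM arrays. No size is given for Il6 and Nos2, which were above background on none of the LZCM 24 h arrays. The effects on Slpi, Upp1, Il1b and Il10 were larger at 24 h, by 3.95, 4.36, 1.86 and 1.14.

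By list, the 24 h effect was called above the 6 h effect in 8 of 14 Toll-like receptor members and below it in 1, while for cytokines it was above in 6 of 21 and below in 11. For cell cycle genes it was above in 4 of 33 and below in 21. Chemokine and cytokine receptors had 13 of 18 above and 2 below, and homeostatic microglia genes 12 of 19 above and 5 below. Of the homeostatic genes 14 had been called lower at 6 h, against 10 at 24 h.

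Some genes had effects of opposite sign at the 2 times. Ccl20, a chemokine that attracts cells bearing CCR6, had 7.33, 6.94 and 7.03 in aSCM against 8.39, 8.42 and 8.28 in LZCM at 24 h and was 2.40-fold lower, against a log2 fold change of 6.22 at 6 h, and the difference of -7.49 was the lowest of all genes called at 24 h. Sfrp2, an inhibitor of Wnt ligands, had 6.36, 6.43 and 6.24 in aSCM against 7.42, 7.61 and 7.63 in LZCM and was 2.31-fold lower at 24 h, against 3.38 at 6 h. Gdf15, a stress-induced cytokine, and Plpp3, which degrades lysophosphatidic acid, were called lower by small amounts at 24 h (-0.36 and -0.44) after 4.28 and 4.18 at 6 h. The 24 h call of Gdf15 was lost without LZCM 24 h replicate 3 (-0.24) or aSCM 24 h replicate 2 (-0.31).

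In the other direction Tnfrsf8, the receptor CD30, had 9.72, 9.72 and 9.54 in aSCM against 6.47, 6.48 and 6.69 in LZCM and was 8.65-fold higher at 24 h, against -1.13 at 6 h. Il21r, the receptor of interleukin-21, had 9.43, 9.36 and 9.19 in aSCM against 8.50, 8.24 and 8.47 in LZCM at 24 h, and its log2 fold change was 0.93 at 24 h against -3.73 at 6 h. Tmem37 differed by 1.02 at 24 h and -3.49 at 6 h. Adap2, a GTPase-activating protein, differed by only -0.25 at 24 h (adjusted p 0.0140) against -4.81 at 6 h, and its 24 h call was lost without LZCM 24 h replicate 1 (-0.19, adjusted p 0.0663).

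**Figure D5:**
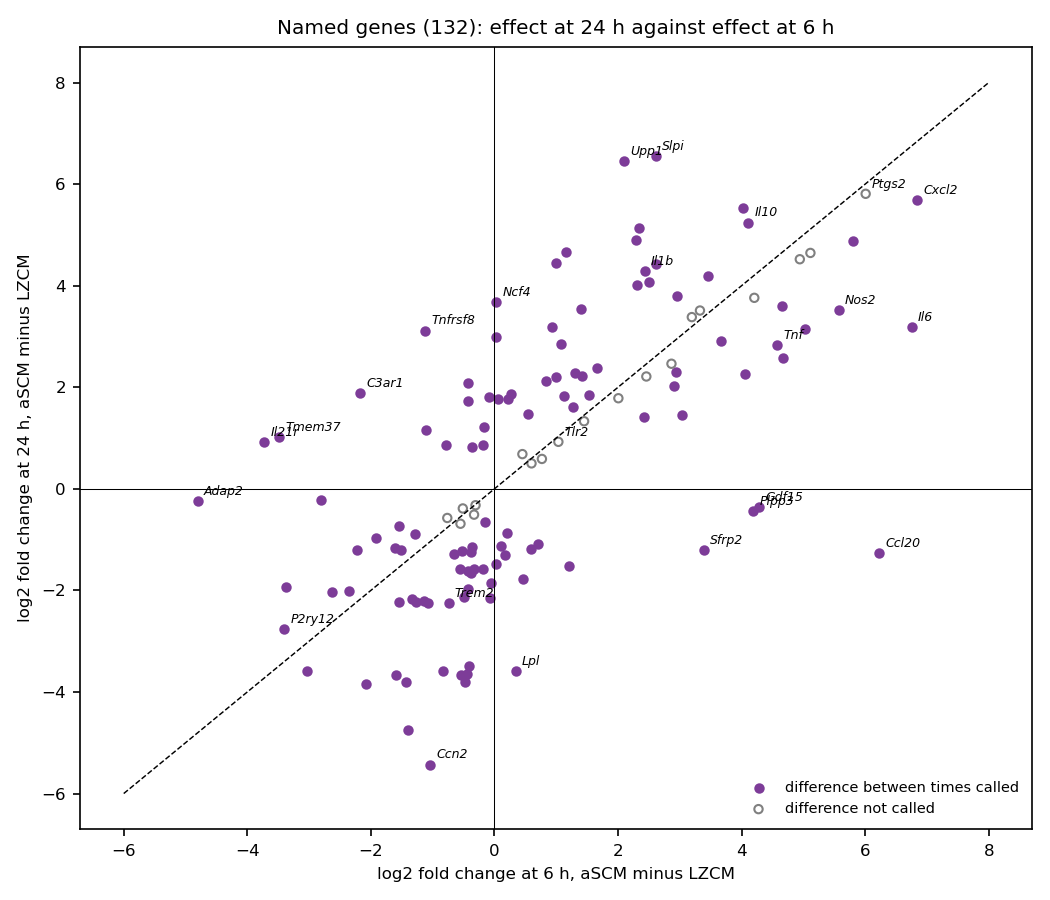
Log2 fold change of aSCM minus LZCM at 24 h (vertical axis) against that at 6 h (horizontal axis) for the 132 named genes, filled where the difference between the times was called and open where it was not, with the dashed line marking equal effects. The points of Il6 and Nos2 rest on LZCM values near the floor. Slpi and Upp1 lie above the line at top, Cxcl2 and Tnf below it, and Ccl20 lies farthest to the right among the genes higher at 6 h and lower at 24 h.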

How the data were processed

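Total RNA of 12 samples was measured on Illumina rat bead arrays. The authors deposited 1 log2 signal per probe and array, without normalization across arrays. Base 2 was inferred, since as powers of 2 the array maxima fall just short of what a 16-bit scanner can record. The submitters' processing notes name R 2.9.1, and the sources used here name no earlier step. A second deposited table holds the authors' processed log2 values (correlation at least 0.9993 per array) and served as an alternative.

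Signals were returned to the linear scale, corrected with normexp (offset 16), quantile normalized and log2-transformed. Probes above background (one-sided p under 0.05 against a normal distribution set by each array's mode and the signals below it) on at least 3 of 12 arrays were tested, which set aside 9183. limma 3.58.1 in R 4.3.3 fitted 4 group means with lmFit and eBayes (8 residual and 4.053 prior degrees of freedom), and p-values were Benjamini-Hochberg adjusted over the 13340 tested probes. The median SE of a log2 fold change was 0.101, and the number of arrays limits the precision.

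Platform annotation, updated through RefSeq, named 13793 probes and left 8730 unnamed, of which 4044 were tested and 1937 (47.9%) called. A gene was read by its tested probe of highest mean signal; 5 of 206 genes with several tested probes had opposite calls. Named genes are the 12 largest rises and falls without overlap, the 4 largest calls of each list, 8 preset genes and the 5 largest and 5 smallest differences between times; other list members and cell type markers were picked after their values were seen. Members and lists were chosen with earlier results of these data known. Alternatives covered background correction, normalization, filter, replicate block, arrays, variance model, thresholds, probe choice and each array left out.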

Additional observations from a re-analysis of the deposited data

Results flagged for a closer look

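The effect of aSCM at 24 h and that at 6 h pointed in opposite directions, or differed most, in the genes given here, with the difference (24 h minus 6 h, log2 scale) tested in the limma fit and called at adjusted p under 0.05 for each. With 53.9% of genes called in this test, a called difference is common, and no explanation was weighed.

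Effects were lower at 24 h in 10 genes. The differences were -7.49 for Ccl20, -4.64 for Gdf15, -4.62 for Plpp3, -4.59 for Sfrp2 and -4.40 for Ccn2. They were -3.94 for Lpl, -2.72 for Olr1, -2.23 for Tgfb2, -1.80 for Ltbp1 and -1.78 for Idi1. Ccn2 was lower in aSCM at both times, and the other 9 were called higher at 6 h and lower at 24 h.

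Effects were higher at 24 h in 11 genes. The differences were 4.65 for Il21r, 4.56 for Adap2, 4.51 for Tmem37, 4.36 for Upp1, 4.24 for Tnfrsf8 and 4.06 for C3ar1. They were 2.51 for Stard4, 2.27 for Ticam2, 2.16 for Nr1h3, 1.64 for Atp13a2 and 1.19 for Lpcat3. Upp1 was called higher at both times and Adap2 lower at both, and the other 9 were called lower at 6 h and higher at 24 h.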

How the results depend on the processing

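The alternatives numbered 26, and 12 of them leave out 1 array. Single named genes were not followed under limma's treat, which asks for a log2 fold change beyond 0.5. Under every other alternative 124 of the 132 named genes kept their call and direction, while 8 changed call and 0 changed direction. Small calls can be lost under treat: it left 0 tricarboxylic acid cycle members higher and 0 lower, and 0 respiratory chain members lower. The counts over all tested probes and genes at adjusted p under 0.05, with no fold asked for, moved by over 1.5 times under 2 settings. Without normalization between arrays 4779 probes were called, 1657 of them higher, and 3432 genes, against 7322, 3757 and 5279 with quantile normalization; the cause was not tested. Asking for a log2 fold change beyond 0.5 (limma's treat) left 2430 probes, 1040 higher and 1390 lower, and 1808 genes, by its own construction. With 75th percentile scaling 4810 probes were higher and 2880 lower, against 3757 and 3565. Some counts past 4-fold and 10-fold moved under other settings. Genes at least 4-fold lower numbered 98 with no background correction, against 156, and were over 1.5 times fewer with the authors' processed values too. Genes at least 10-fold lower numbered 7 under both of these settings and 8 with offset 50, against 15. Of 70 counts of list and marker members called in 1 direction, 18 moved by over 1.5 times without normalization, 7 with 75th percentile scaling, 37 with treat, by its own construction, and 0 to 4 under each other setting, including each array left out. Without normalization, members called higher fell to 4 for chemokine and cytokine receptors, 3 for homeostatic microglia genes, 5 for lysosomal genes and 1 for TGF-beta genes.

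Leaving out 1 array gave 6703 to 7547 probes called, 3411 to 3887 higher, 3292 to 3660 lower, 638 to 664 at least 2-fold higher, 993 to 1039 at least 2-fold lower, and 4867 to 5462 genes. The shared replicate numbers do not settle whether arrays were paired. Deviations of same-numbered 24 h arrays correlated at 0.017 to 0.173, and those of different-numbered 24 h arrays at -0.145 to 0.038. Over all groups same-numbered deviations correlated at -0.061 to 0.207. With the replicate number as a block 7428 probes were called, 3825 higher and 3603 lower, 651 and 1001 of them at least 2-fold, and 5344 genes, Casp4 was not called lower, and 1 respiratory chain gene was called higher. 5 of 6 arrays correlated best with their own number, a hint from the data alone.

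Cx3cr1 was called lower under 12 alternatives, with adjusted p between 0.0244 and 0.0498 (0.034 with the block). Ndufs8, Ndufa10, Gdf15 and Adap2 lost their call with 75th percentile scaling, and Cox8a, Ndufs8, Ndufa10, Cs, Dlst and Adap2 without normalization. Gdf15 also lost it without LZCM 24 h replicate 3 (-0.24) or aSCM 24 h replicate 2 (-0.31). Quantile normalization assumes like signal distributions, and fold changes of dim probes are understated by the offset. The highest deposited 24 h values of Il1b, Mmp9 and Cd14 were 15.47, 14.99 and 14.98, against a scanner ceiling of 16. Whether signals of this size limit their folds was not tested.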
